A study of Mus musculus with 12 samples.

Results

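Cathepsins are the proteases of the lysosome, and the vacuolar ATPase is the proton pump that acidifies it. The genes described here are the rows listed under a symbol made of Cts and a single letter, or beginning with Atp6v or Atp6ap, together with Lamp1 and Lamp2. The rule found 34 genes of the 12850 listed. They are 10 cysteine cathepsins (Ctsb, Ctsc, Ctsf, Ctsh, Ctsk, Ctsl, Ctso, Ctss, Ctsw and Ctsz), 2 aspartic cathepsins (Ctsd and Ctse), the serine carboxypeptidase Ctsa, 7 subunits of the membrane sector V0, 9 subunits of the cytosolic sector V1, the 2 accessory subunits Atp6ap1 and Atp6ap2, and the 2 lysosomal membrane glycoproteins Lamp1 and Lamp2. The rule also took in Atp6v0c-ps2, a processed pseudogene that may share reads with Atp6v0c. Of the 34, 32 reached 1 CPM (the usual unit of read counts scaled to library size) in 2 or more libraries and were tested, and Ctse and Ctsw did not.

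Messenger RNA was sequenced from thioglycollate-elicited peritoneal exudate cells (PECs), the macrophage-rich cells recruited into the peritoneal cavity by an irritant, taken 3.5 days after its injection into C57BL/6 mice. The mice were WT or carried Zc3h12a S513A, a serine-to-alanine knock-in in Regnase-1, the RNase encoded by Zc3h12a. Cells received 100 ng/ml LPS, a ligand of TLR4, for 0, 4 or 8 hr. The 6 groups (WT or S513A at 0, 4 or 8 hr) held 2 libraries apiece. The age and sex of the mice were not given in the sources used here, and nothing in them says that the 2 libraries of a group came from separate mice, so p values measure only the spread between these libraries. The labels name no unstimulated culture kept for 4 or 8 hr, so time with LPS and time in culture cannot be told apart. The knock-in carries a changed residue, and gene levels do not check it.

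Lysosomal proteases are made as inactive precursors and mature in the acidic lumen. The V1 sector hydrolyses ATP and turns the proton-carrying ring of V0, and cells assemble the pump with alternative isoforms of some subunits (a1, a2 and a3, the last encoded by Tcirg1, or d1 and d2). In macrophages these genes serve the digestion of engulfed material and the trimming of antigens and of the invariant chain. Many of them belong to the CLEAR network, whose promoters carry an E-box read by the MiT/TFE transcription factors TFEB, TFE3 and MITF.

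Libraries held 9525979 to 12439960 reads on the listed genes. Values are log2 CPM unless a sentence says otherwise. The 5 macrophage markers (Adgre1, Cd68, Mertk, Fcgr1 and Mrc1) were all listed, with a summed level of 3109 to 3345 CPM at 0 hr and 3645 to 4844 CPM with LPS. Adgre1 carried the higher sum (1040 to 1219 CPM at 0 hr and 2611 to 3054 at 8 hr), and Fcgr1 was also higher at 8 hr (48.8 to 64.3 CPM at 0 hr and 99.0 to 152 at 8 hr). Over the same times Mrc1 went from 183 to 228 CPM down to 50.2 to 59.0, Cd68 from 1658 to 1945 CPM down to 1418 to 1514, and Mertk was at 86.1 to 106 CPM and 69.6 to 93.6. Markers of other cells were low: among neutrophil markers only S100a8 of 7 was listed, at 20.2 to 106 CPM, and 4 of 6 mast cell markers summed to 1.76 to 3.84 CPM. The 2 listed eosinophil markers of 5, Siglecf and Ccr3, summed to 15.3 to 18.5 CPM at 0 hr and 3.62 to 4.58 CPM at 8 hr. The listed T cell and NK cell (1 of 8), B cell (4 of 5), dendritic cell (4 of 5) and mesothelial (3 of 4) markers each summed to at most 8.87 CPM in any library, and none of 3 erythroid markers was listed. Their part in the results below was not tested. In bulk RNA, fewer cells of a type and less RNA per cell cannot be told apart. Replicates differed along a shared axis, the first component of the differences between libraries of one group, which held 39.2% of that variance. WT 4 hr replicate 2 and S513A 8 hr replicate 1 scored highest on it (1.64 and 1.66 SD) and S513A 4 hr replicate 2 lowest (-1.52 SD). Scores were taken on values centred by time over both genotypes, so they also hold genotype differences along the axis.

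The promoters of 5 of these genes are shown because the set spans both directions of the LPS response described below: 3 genes that fell (Ctsd, Lamp1 and, at 4 hr only, Atp6v0d1) and 2 that rose (Atp6v0b and Ctsc). Each window runs 5′ to 3′ from 250 bases before to 50 bases after the annotated start, from RefSeq on GRCm38.p6, and capitals mark the E-box CACGTG, which reads the same on both strands.
Ctsd, chr7:142387778-142388077, minus strand: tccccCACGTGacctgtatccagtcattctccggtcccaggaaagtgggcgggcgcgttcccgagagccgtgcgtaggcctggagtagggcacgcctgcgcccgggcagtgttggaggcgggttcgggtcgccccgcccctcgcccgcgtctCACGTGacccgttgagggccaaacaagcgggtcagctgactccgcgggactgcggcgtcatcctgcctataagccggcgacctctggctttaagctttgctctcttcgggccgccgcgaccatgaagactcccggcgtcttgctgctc
Lamp1, chr8:13158911-13159210, plus strand: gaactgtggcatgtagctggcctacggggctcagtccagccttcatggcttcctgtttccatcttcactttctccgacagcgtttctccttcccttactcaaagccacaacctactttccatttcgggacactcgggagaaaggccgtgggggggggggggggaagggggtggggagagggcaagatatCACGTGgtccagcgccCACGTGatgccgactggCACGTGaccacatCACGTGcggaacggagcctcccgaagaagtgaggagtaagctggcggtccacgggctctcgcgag
Atp6v0d1, chr8:105566015-105566314, minus strand: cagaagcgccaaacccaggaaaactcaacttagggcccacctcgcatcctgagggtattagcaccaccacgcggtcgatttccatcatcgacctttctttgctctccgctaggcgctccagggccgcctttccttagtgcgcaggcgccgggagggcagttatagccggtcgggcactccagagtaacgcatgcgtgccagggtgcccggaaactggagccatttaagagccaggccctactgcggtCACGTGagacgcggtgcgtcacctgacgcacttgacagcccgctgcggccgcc
Atp6v0b, chr4:117887280-117887579, minus strand: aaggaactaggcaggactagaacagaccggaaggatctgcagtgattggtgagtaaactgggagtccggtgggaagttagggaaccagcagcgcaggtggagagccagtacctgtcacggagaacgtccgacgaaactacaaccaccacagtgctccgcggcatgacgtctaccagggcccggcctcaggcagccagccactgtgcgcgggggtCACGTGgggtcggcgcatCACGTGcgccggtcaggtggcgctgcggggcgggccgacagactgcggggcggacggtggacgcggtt
Ctsc, chr7:88277835-88278134, plus strand: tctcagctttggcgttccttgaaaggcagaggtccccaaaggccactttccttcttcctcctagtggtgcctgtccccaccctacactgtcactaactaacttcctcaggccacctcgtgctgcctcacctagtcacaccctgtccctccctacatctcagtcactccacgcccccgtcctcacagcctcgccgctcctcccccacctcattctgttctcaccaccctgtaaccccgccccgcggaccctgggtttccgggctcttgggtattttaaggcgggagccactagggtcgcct

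CACGTG occurred in a window of 9 of the 23 genes that had one (Atp6v0b, Atp6v0d1, Atp6v0e, Atp6v1a, Ctsa, Ctsd, Ctsf, Ctsl and Lamp1), against 8.09% of all 27025 genes with a window and 7.15% of all 32851 windows. Lamp1 held 4 copies within 61 bases upstream of its start, Ctsd and Atp6v0b held 2 each, and Ctsc held none. Every printed gene that fell held it, but Atp6v0a1, with the largest fall among genes with a window, held none and is not printed. The longer TCACGTGA, which contains CACGTG, occurred in Atp6v0d1, Atp6v0e, Atp6v1a, Ctsa and Ctsd, 5 of the 23, against 1.13% of all genes. A match describes these letters only. No window was given for Atp6v0d2, Atp6v1b2, Atp6v1c1, Ctsb or Atp6v0c-ps2, which fell at 4 hr, nor for Atp6v0a2, which rose. The counts below leave these genes out. Of the 9 genes with CACGTG, 1 rose and 5 fell at 4 hr, where 29.1% of all genes rose and 26.7% fell, and 1 rose and 6 fell at 8 hr, where 24.5% and 21.6% did. Of the 14 without it, 2 rose and 3 fell at 4 hr and 3 rose and 1 fell at 8 hr. This split was not tested.

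Before LPS, Ctsd, the main aspartic protease of the lysosome, was the most abundant of the 34 genes per length, at 6742 ± 107 CPM per kb of exon (SD, n = 4 libraries), and ranked 4 among all listed genes with a length. Ctss, which trims the invariant chain of MHC class II, followed at 5994 ± 897 CPM per kb, and their ranges overlapped (6621 to 6867 and 5179 to 6775). Ctsb, a cysteine protease with both endopeptidase and carboxypeptidase activity, stood at 2031 ± 148, Ctsz, a carboxypeptidase, at 1371 ± 185, Lamp1 at 949 ± 39.2 and Ctsl, another endopeptidase, at 546 ± 35.5 CPM per kb, with no overlap between neighbours from Ctss down to Ctsl. The place of Ctsl depends on its annotated length of 6168 bases. Before division by length it took 0.370% of all CPM at 0 hr, against 0.217% for Ctsz and 0.233% for Lamp1. Among pump subunits, Atp6v0b (506 ± 51.1), Atp6v0c (398 ± 24.3) and Atp6v0d2 (378 ± 50.8) were highest, with overlap in range between Atp6v0c and Atp6v0d2 and none between Atp6v0b and Atp6v0c. At the other end, Atp6v0a2, the a2 isoform, was at 7.88 ± 0.306, the brain-type V1 subunit Atp6v1g2 at 1.78 ± 0.321, and Ctsf at 1.58 ± 0.226 CPM per kb.

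**Figure D1:**
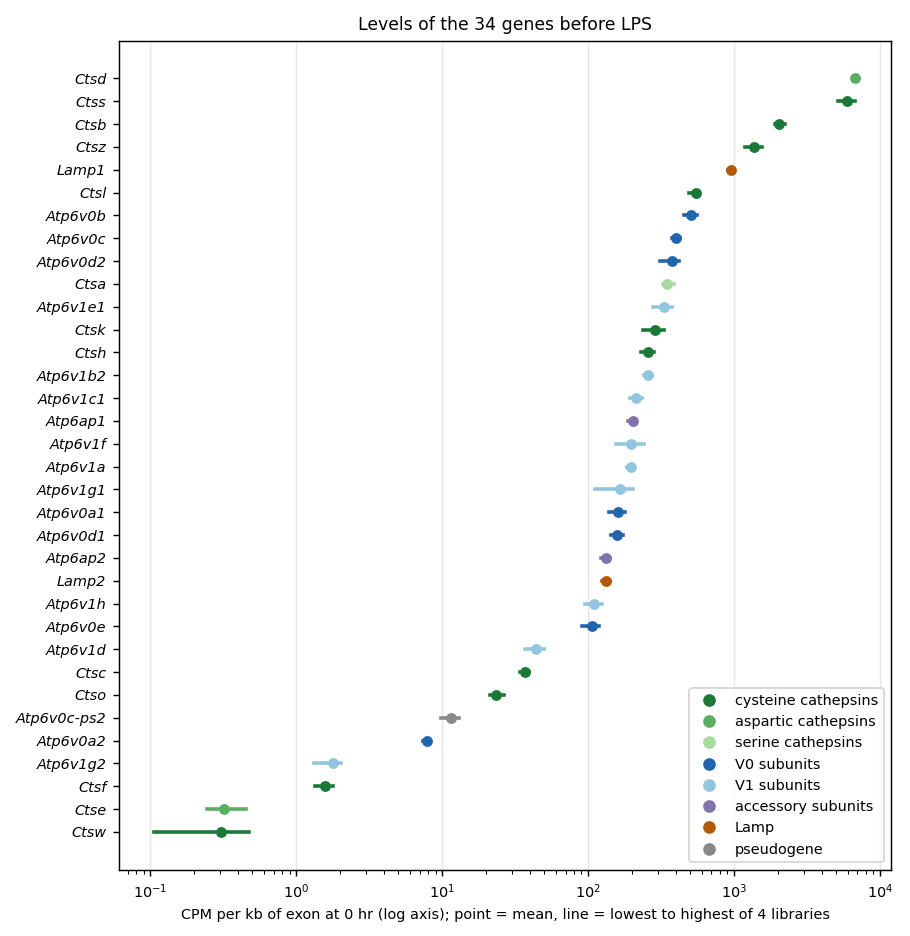
Level of each of the 34 genes at 0 hr in CPM per kb of exon on a log axis. Points are means of 4 libraries (2 WT and 2 S513A), lines run from the lowest to the highest library, and colours give the family. Ctsd, Ctss, Ctsb and Ctsz lead, and Ctse and Ctsw are lowest.

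Together the 34 genes took 5.37% to 5.64% of the reads of the 0 hr libraries and 3.12% to 3.86% of those of the LPS libraries, so the groups did not overlap. The cathepsins alone took 4.28% to 4.52% at 0 hr and 2.39% to 3.08% with LPS, and the pump subunits 0.771% to 0.829% and 0.468% to 0.615%. A share of all reads also depends on the other transcripts of the library.

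LPS lowered more of these genes than it raised. The falls were largest in the alternative pump subunits Atp6v0d2 and Atp6v0a1 at both times, followed by Atp6v1b2 and Atp6v1c1 at 4 hr and by Ctsl and Ctsd at 8 hr. At 4 hr, averaged over genotypes, 4 of the 32 rose and 13 fell at an adjusted p under 0.05, where 55.8% of all 11885 genes tested were called, 29.1% higher and 26.7% lower. At 8 hr, 6 rose and 12 fell, where 46.1% of all genes were called, 24.5% higher and 21.6% lower. The number called was thus close to the background, and the lean was toward lower values, with a median log2 change of -0.25 at 4 hr and -0.22 at 8 hr against 0.02 and 0.00 over all genes. With quantile normalization the lean was stronger, with 1 gene rising and 20 falling at each time. That setting called 55.1% of all genes at 4 hr and 46.7% at 8 hr. In 11 of the 32 all 4 libraries at 4 hr lay below all 4 at 0 hr, and in 2 above, where 23.4% and 25.7% of all genes did so. At 8 hr 15 lay below and 3 above, where 20.7% and 23.0% of all genes did so. Both 4 hr and 8 hr were set against the same 0 hr libraries.

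**Figure D2:**
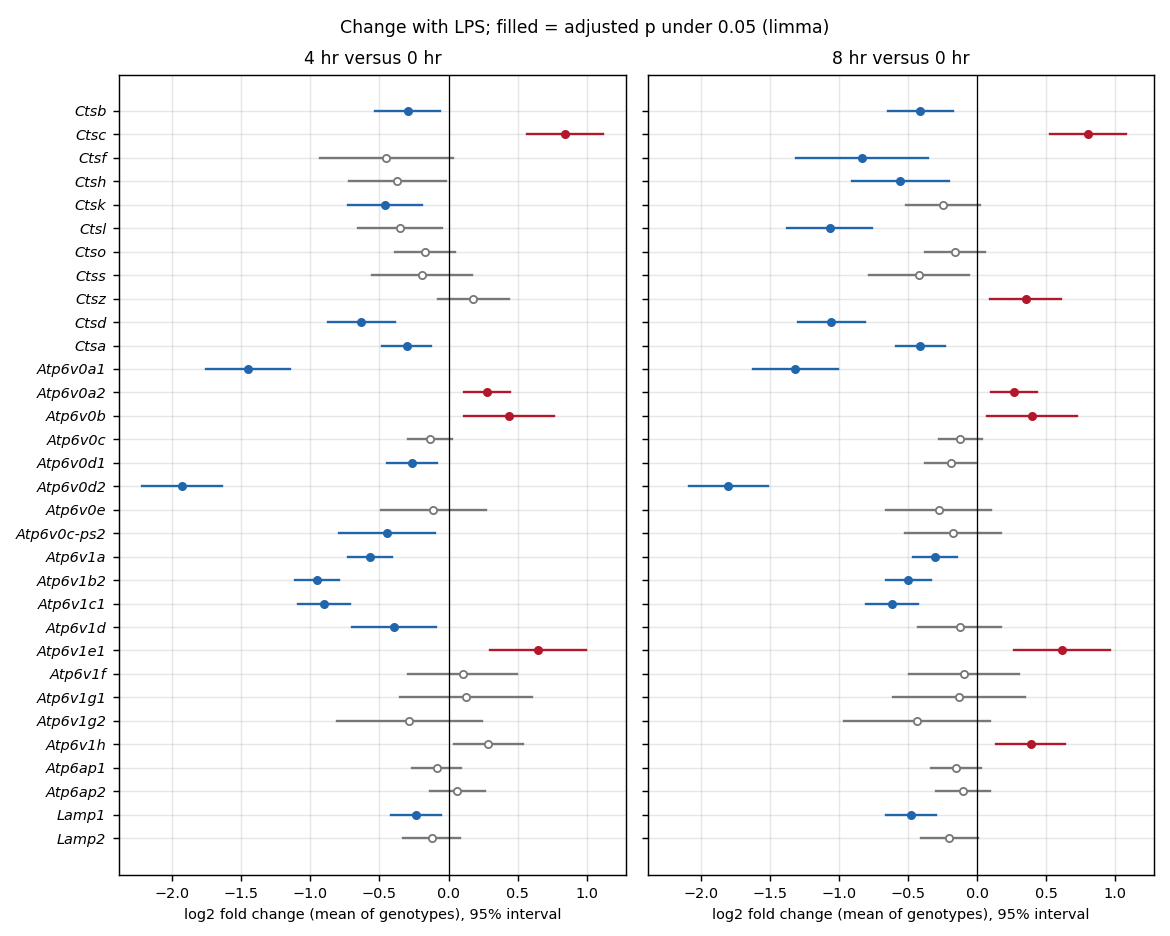
Log2 fold change of the 32 tested genes at 4 hr and 8 hr of LPS against 0 hr, averaged over genotypes, with 95% intervals. Filled points have a limma adjusted p under 0.05, red higher and blue lower. Atp6v0d2 and Atp6v0a1 lie farthest to the left in both panels, and Ctsc farthest to the right.

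Ctsd was 13.82 and 13.78 in the WT and 13.83 and 13.80 in the S513A libraries at 0 hr. The separate libraries taken after 4 hr of LPS read, in the same order of groups, 13.30, 13.06, 13.19 and 13.15, and those after 8 hr 12.84, 12.94, 12.56 and 12.68. The 3 times did not overlap, and Ctsd fell at each step: by 0.63 ± 0.11 on the log2 scale at 4 hr (SE, adjusted p = 0.000569), and by 1.05 ± 0.11 at 8 hr (adjusted p = 1.65e-05), to 0.482 of its 0 hr level. The step from 4 to 8 hr was -0.42 ± 0.11 (adjusted p = 0.0169). Quantile normalization gave a change of -0.53 at 8 hr, still called. The gene model Gm49369 overlaps exons of Ctsd on the same strand.

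Ctsl, which also shares exons with a pair of overlapping gene models, was 11.77 and 11.77 in the WT and 11.75 and 11.57 in the S513A libraries at 0 hr. At 4 hr it was 11.66 and 11.08 in WT and 11.28 and 11.44 in S513A, which overlapped the 0 hr range and did not pass the test (-0.35 ± 0.14, adjusted p = 0.0509). At 8 hr it was 10.93 and 10.99 in WT and 10.14 and 10.52 in S513A, below every other library. Ctsl thus fell at 8 hr by 1.07 ± 0.14 (adjusted p = 8.46e-05), and from 4 to 8 hr by 0.72 ± 0.14 (adjusted p = 0.00343).

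Ctsb was 13.20, 13.15, 13.38 and 13.19 at 0 hr in the order WT replicates 1 and 2, then S513A replicates 1 and 2, which is also the order of the series that follow. After 4 hr it read 12.93, 12.91, 13.03 and 12.87, and after 8 hr 12.77, 12.88, 12.85 and 12.77. Its LPS libraries lay below all 0 hr libraries, and it fell by 0.30 ± 0.11 at 4 hr (adjusted p = 0.0352) and by 0.41 ± 0.11 at 8 hr (adjusted p = 0.00876). Both calls were lost with quantile normalization (-0.16, adjusted p = 0.303, and -0.02, adjusted p = 0.893). Ctsb overlaps exons of Fdft1 on the other strand, and the strand setting of the counting was not given in the sources used here.

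Ctss started at 12.80, 12.78, 13.17 and 13.17, read 12.93, 12.27, 12.81 and 13.14 after 4 hr, and 12.68, 12.76, 12.17 and 12.62 after 8 hr. Its 8 hr libraries lay just below the 0 hr range, and neither change passed the test (-0.19 ± 0.16, adjusted p = 0.349, and -0.42 ± 0.16, adjusted p = 0.0561). The 4 hr change was -0.02 without WT 4 hr replicate 2 and -0.36 without WT 4 hr replicate 1, and the 8 hr change passed in 11 of 25 alternative settings. Its lowest values at 4 and 8 hr were in WT 4 hr replicate 2 and S513A 8 hr replicate 1, the libraries that scored highest on the axis between replicates.

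Ctsz moved the other way. It started at 10.75, 10.79, 11.09 and 11.12, read 11.22, 10.79, 11.15 and 11.32 after 4 hr, and 11.33, 11.44, 11.05 and 11.34 after 8 hr. The times overlapped, and the change was 0.18 ± 0.12 at 4 hr (adjusted p = 0.21) and a rise of 0.35 ± 0.12 at 8 hr (adjusted p = 0.0288). Quantile normalization turned the 4 hr change to -0.28 and left 0.10 at 8 hr, not called. Ctsz overlaps exons of Nelfcd on the other strand.

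Among the remaining cathepsins, Ctsc, which activates granule serine proteases by removing dipeptides, rose most. Its 4 libraries at 0 hr lay between 7.51 and 7.72, those at 4 hr between 8.19 and 8.67, and those at 8 hr between 8.15 and 8.52, without overlap with 0 hr. The rise was 0.84 ± 0.12 at 4 hr (1.79-fold, adjusted p = 0.000173) and 0.80 ± 0.12 at 8 hr (1.74-fold, adjusted p = 0.000329). Ctsa, the protective protein of the neuraminidase complex, fell from 10.22 to 10.49 at 0 hr to 9.96 to 10.09 at 4 hr and 9.85 to 9.95 at 8 hr, with changes of -0.30 ± 0.08 and -0.41 ± 0.08 (adjusted p = 0.00794 and 0.00165). Ctsa overlaps exons of Pltp and Neurl2 on the other strand.

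Ctsk, the collagen-degrading protease of osteoclasts, fell at 4 hr (-0.46 ± 0.12, adjusted p = 0.00733) and stood at -0.25 ± 0.12 at 8 hr (adjusted p = 0.119). Ctsh, an aminopeptidase, and Ctsf fell at 8 hr, by 0.56 ± 0.16 and 0.83 ± 0.22 (adjusted p = 0.0141 and 0.00874), after changes of -0.37 and -0.45 at 4 hr that did not pass the test. Ctso passed at neither time. Ctse and Ctsw had at most 11 and 9 reads in any library. Of the 11 cathepsins tested, 1 rose and 4 fell at 4 hr and 2 rose and 6 fell at 8 hr, with medians of -0.30 and -0.41. Of all genes, 29.1% rose and 26.7% fell at 4 hr, and 24.5% and 21.6% at 8 hr.

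Lamp1, a heavily glycosylated coat protein of the lysosomal membrane, started at 11.06, 10.98, 11.03 and 11.12, read 10.84, 10.71, 10.82 and 10.87 after 4 hr, and 10.56, 10.61, 10.49 and 10.61 after 8 hr. The 3 times did not overlap, and it fell by 0.23 ± 0.08 at 4 hr (adjusted p = 0.0308) and by 0.48 ± 0.08 at 8 hr (adjusted p = 0.000644). Quantile normalization gave -0.72 and -0.81, and the 4 hr call was lost in 7 of 25 alternative settings, among them those without WT 0 hr replicate 1 or 2, WT 4 hr replicate 2, S513A 0 hr replicate 2 or either S513A 4 hr replicate. Lamp2, which also serves chaperone-mediated autophagy, passed at neither time (-0.12 ± 0.09 and -0.20 ± 0.09, adjusted p = 0.291 and 0.105). Lamp1 overlaps exons of Grtp1 on the other strand.

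**Figure D3:**
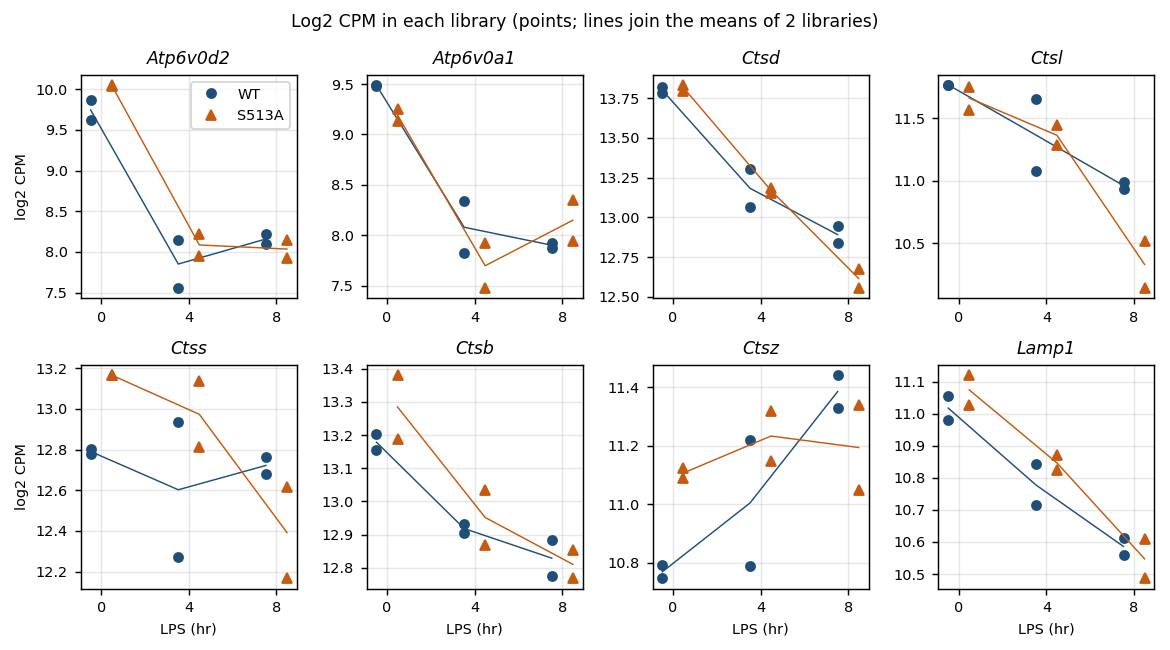
Log2 CPM of 8 genes in every library at 0, 4 and 8 hr of LPS. Circles are WT and triangles S513A libraries, and lines join the means of the 2 libraries of a group. Atp6v0d2 and Atp6v0a1 drop by 4 hr and change little after it, while Ctsd and Lamp1 step down at each time.

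The largest change in the pump was in Atp6v0d2, the d2 isoform of the V0 stalk subunit, known from osteoclasts and macrophages (GRCm38 chr4:19876841-19922605, minus strand). It was 9.62 and 9.87 in the WT and 10.05 and 10.04 in the S513A libraries at 0 hr. After 4 hr it read 8.15, 7.55, 7.95 and 8.22, and after 8 hr 8.09, 8.22, 7.93 and 8.14. Every LPS library lay more than 1 log2 unit below every 0 hr library. The fall was 1.93 ± 0.13 at 4 hr (to 0.263 of the 0 hr level, adjusted p = 3.75e-07) and 1.80 ± 0.13 at 8 hr (to 0.287, adjusted p = 8.28e-07).

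Atp6v0a1, the a1 isoform of the V0 subunit that forms the proton path (GRCm38 chr11:101009452-101063719, plus strand), was 9.48 and 9.49 in the WT and 9.25 and 9.13 in the S513A libraries at 0 hr. After 4 hr it read 7.82, 8.34, 7.92 and 7.47, and after 8 hr 7.93, 7.87, 8.35 and 7.95, again below every 0 hr library. The fall was 1.45 ± 0.14 at 4 hr (to 0.366, adjusted p = 5.93e-06) and 1.31 ± 0.14 at 8 hr (to 0.402, adjusted p = 1.78e-05). From 4 to 8 hr their changes were 0.13 and 0.14, and neither passed the test.

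The other isoforms of these subunits fell far less or rose, so the make-up of both subunits shifted at the RNA level. Atp6v0d1, the widely expressed d isoform, changed by -0.27 ± 0.08 at 4 hr, a fall (adjusted p = 0.0171), and by -0.19 ± 0.08 at 8 hr (adjusted p = 0.0785). Atp6v0a2 rose by 0.28 ± 0.07 and 0.27 ± 0.07 (adjusted p = 0.0079 and 0.0129), and Tcirg1, the a3 isoform, rose by 0.41 ± 0.10 at 4 hr (adjusted p = 0.00673) and stood at 0.26 ± 0.10 at 8 hr (adjusted p = 0.0671). Atp6v0a2 was not called at either time with quantile normalization, and it overlaps exons of 4930404A12Rik on the other strand.

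Per kb of exon, Atp6v0d2 made up 68.2% to 71.5% of the d isoforms at 0 hr, 38.8% to 45.2% at 4 hr and 43.4% to 44.2% at 8 hr. Atp6v0a1 made up 38.8% to 42.4% of the a isoforms at 0 hr, 14.2% to 18.9% at 4 hr and 17.8% to 20.4% at 8 hr, while Tcirg1 made up 55.6% to 59.3% at 0 hr and at least 77.2% with LPS. Atp6v0a2 stayed at or under 3.05%. The summed level of the d isoforms went from 455 to 588 CPM per kb at 0 hr to 191 to 259 at 4 hr and 221 to 266 at 8 hr, without overlap. That of the a isoforms ranged over 335 to 430, 309 to 423 and 311 to 396 CPM per kb, which overlapped.

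The log2 ratio of Atp6v0d2 to Atp6v0d1 fell by 1.66 at 4 hr and by 1.61 at 8 hr, that of Atp6v0a1 to Atp6v0a2 by 1.73 and 1.58, and that of Atp6v0a1 to Tcirg1 by 1.86 and 1.57. In each of the 6 comparisons the 4 LPS libraries lay below the 4 at 0 hr, with p = 0.0286 by a two-sided exact permutation test, the smallest that 4 against 4 libraries can give, and 0.0286 after adjustment over the 6. These ratios were chosen after the data were seen, so the tests describe the shift and do not stand as independent evidence of it.

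**Figure D4:**
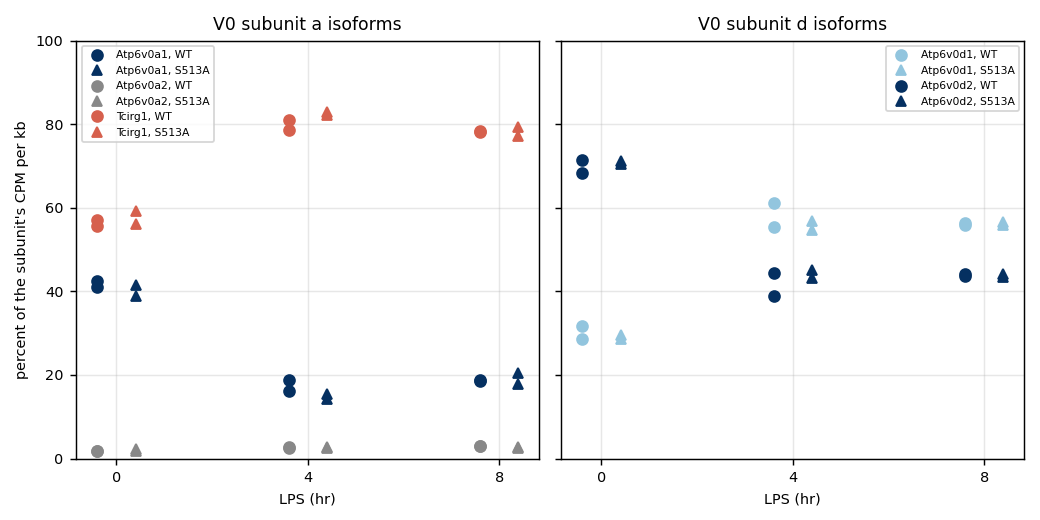
Share of each isoform in the summed CPM per kb of its V0 subunit in every library (circles WT, triangles S513A) at 0, 4 and 8 hr. Atp6v0d2 goes from 68.2% or more of subunit d to 45.2% or less, and Atp6v0a1 from 38.8% or more of subunit a to 20.4% or less.

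The other V0 subunits changed less. Atp6v0b, a proteolipid of the rotating ring, rose by 0.44 ± 0.15 at 4 hr and 0.40 ± 0.15 at 8 hr (adjusted p = 0.0256 and 0.0455), but its libraries overlapped at both times and it was not called at either time with quantile normalization. It overlaps exons of Gm12841 on the other strand. Atp6v0c, the other ring proteolipid, and Atp6v0e passed at neither time. The pseudogene Atp6v0c-ps2, at 2.19 to 2.59 at 0 hr, fell at 4 hr (-0.44 ± 0.16, adjusted p = 0.0333) and not at 8 hr (-0.18, adjusted p = 0.396). Over the 7 V0 subunits, 2 rose and 3 fell at 4 hr and 2 rose and 2 fell at 8 hr. Among all genes, the 4 hr test called 29.1% higher and 26.7% lower. The 8 hr test called 24.5% higher and 21.6% lower.

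In the V1 sector, the subunits of the catalytic core fell at 4 hr and came part of the way back by 8 hr. Atp6v1b2, the B subunit, ranged over 9.41 to 9.58 before LPS, 8.42 to 8.62 after 4 hr and 8.92 to 9.10 after 8 hr. Its fall of 0.95 ± 0.07 at 4 hr (adjusted p = 1.03e-06) had narrowed to 0.50 ± 0.07 at 8 hr (adjusted p = 0.000218), a rise of 0.45 ± 0.07 from 4 to 8 hr (adjusted p = 0.00122). Atp6v1a, the catalytic A subunit, ranged over 9.61 to 9.77, 9.05 to 9.23 and 9.31 to 9.45 in the same order. It changed by -0.57 ± 0.07 and -0.31 ± 0.07 (adjusted p = 5.28e-05 and 0.0049), with 0.26 ± 0.07 from 4 to 8 hr (adjusted p = 0.0208). Neither gene's libraries overlapped between any of the 3 times.

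Atp6v1c1, the C subunit that joins V1 to V0 when the pump assembles, went from 8.64 to 8.91 at 0 hr to 7.64 to 8.05 at 4 hr and 8.03 to 8.25 at 8 hr. It fell by 0.90 ± 0.09 at 4 hr and by 0.62 ± 0.09 at 8 hr (adjusted p = 5.95e-06 and 0.000151), with a rise of 0.29 ± 0.09 between them (adjusted p = 0.0329). These 3 V1 genes were the only members that rose from 4 to 8 hr, and Ctsd, Ctsl and Lamp1 were the only ones that fell, where 12.8% of all genes were called higher, 12.8% lower and 25.6% in all. Without S513A 4 hr replicate 1 the test made 2 calls among the members in place of 6, and without WT 8 hr replicate 1, WT 8 hr replicate 2 or S513A 8 hr replicate 2 it made 3. The calls of Lamp1 (adjusted p = 0.0487) and Atp6v1c1 held in 8 and 13 of 25 alternative settings, those of Atp6v1a and Ctsd in 21, and those of Atp6v1b2 and Ctsl in 25.

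Of the stalk subunits, Atp6v1e1, the E subunit, rose by 0.65 ± 0.16 at 4 hr and 0.62 ± 0.16 at 8 hr (adjusted p = 0.00482 and 0.00806). Its libraries overlapped 0 hr at 4 hr but not at 8 hr, when they lay between 9.00 and 9.61 against 8.52 to 8.95, and it was not called at either time with quantile normalization. Atp6v1h, the regulatory H subunit, rose at 8 hr by 0.39 ± 0.11 (adjusted p = 0.0166) and stood at 0.29 ± 0.11 at 4 hr (adjusted p = 0.0506), and the 8 hr call was lost with quantile normalization. It overlaps exons of Rgs20 on the other strand. Atp6v1d, the central rotor, fell at 4 hr by 0.40 ± 0.14 (adjusted p = 0.0299) and stood at -0.13 at 8 hr (adjusted p = 0.484).

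Atp6v1f, Atp6v1g1 and Atp6v1g2, and the accessory subunits Atp6ap1 and Atp6ap2, passed at neither time. Over the 9 V1 subunits, 1 rose and 4 fell at 4 hr and 2 rose and 3 fell at 8 hr, with medians of -0.28 and -0.13. Over the 18 pump subunits and accessory subunits, 3 rose and 7 fell at 4 hr and 4 rose and 5 fell at 8 hr. For both sets the shares over all genes were 29.1% higher and 26.7% lower at 4 hr, and 24.5% and 21.6% at 8 hr. With quantile normalization 0 rose and 11 fell at each time, where 55.1% of all genes were called at 4 hr and 46.7% at 8 hr.

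The change with LPS was also tested within each genotype. At 4 hr all 32 had the same sign in WT and S513A. The test called 10 in WT (3 higher, 7 lower), where 41.3% of all genes were called, 22.6% higher and 18.7% lower. It called 10 in S513A (2 higher, 8 lower), where 43.2% of all genes were called, 23.1% higher and 20.2% lower. Atp6v0a1, Atp6v0d2, Atp6v1a, Atp6v1b2, Atp6v1c1, Atp6v1e1, Ctsc and Ctsd were called in both, 80% of each list, and in one direction each. At 8 hr 27 of 32 had the same sign, and 14 were called in WT (5 higher, 9 lower), where 34.3% of all genes were, 19.4% higher and 14.9% lower. In S513A 16 were called (2 higher, 14 lower), where 39.9% of all genes were, 20.9% higher and 19.0% lower. The 9 called in both (Atp6v0a1, Atp6v0d2, Atp6v1a, Atp6v1b2, Atp6v1c1, Ctsc, Ctsd, Ctsl and Lamp1) made up 64.3% of the WT and 56.2% of the S513A list. Neither the overlap of calls nor the shared signs were counted over all genes. They are therefore not read as particular to these genes.

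Single libraries moved these counts. Without the WT libraries named below, calls over all genes dropped as well, so the drops were not limited to these genes. In WT at 8 hr, 6 genes were called without WT 0 hr replicate 1 or WT 8 hr replicate 2, 7 without WT 8 hr replicate 1 and 8 without WT 0 hr replicate 2. In S513A at 8 hr, 7 were called without S513A 0 hr replicate 1, 9 without S513A 8 hr replicate 1 and 10 without S513A 0 hr replicate 2. In WT at 4 hr 6 were called without WT 0 hr replicate 1, and averaged over genotypes at 4 hr 11 without WT 0 hr replicate 2.

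The comparison of S513A with WT called none of the 32 genes at 0, 4 or 8 hr or averaged over the times. Over all genes the limma test called 4, 2, 4 and 8, or 0.0337%, 0.0168%, 0.0337% and 0.0673%, the last split into 0.0421% higher and 0.0252% lower. At an unadjusted p under 0.05 the members numbered 0, 1, 3 and 1, where 7.98%, 7.01%, 12.5% and 6.71% of all genes passed. No member was called for a difference between genotypes in its LPS change at 4 or 8 hr, where 0.0% of all genes were. No other tool was run for these counts, and voom weights in limma also called 0. The median S513A minus WT difference of the 32 went from 0.18 before LPS to 0.12 and -0.12 after 4 and 8 hr.

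At 0 hr the S513A pair lay wholly above the WT pair in 22 of the 32 genes and below in 4, where 30.4% and 27.1% of all genes did so. At 8 hr 1 lay above and 11 below, where 27.9% and 25.8% of all genes did so, and at 4 hr 2 and 1, where 14.3% and 13.9% did. The differences at 0 hr were 0.62 for Atp6v1g1 (95% interval -0.06 to 1.29), 0.53 for Atp6v1f (-0.03 to 1.09) and 0.38 for Ctss (-0.14 to 0.89), among the genes that also follow the axis between replicates most closely: their loadings stood at the 2.85, 5.84 and 10.3 percentile of 11885 genes. With that axis as a term in the model, the median difference over the 32 was 0.07 at 0 hr and -0.04 at 8 hr, and with quantile normalization 0.02 and -0.05. Scores on the axis separated the genotypes at 0 hr (0.74 and 0.47 SD in WT, -0.42 and -0.80 SD in S513A). The axis term thus also takes up genotype differences and cannot separate them from replicate spread. A model of the 4 libraries at 0 hr alone called 5 V-ATPase genes higher in S513A (Atp6v0e, Atp6v1d, Atp6v1e1, Atp6v1f and Atp6v1g1, adjusted p from 0.0403 to 0.0454), where it called 693 of all genes, 5.83%.

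The smallest p of any member between genotypes was that of Ctsl at 8 hr. Both S513A libraries (10.14 and 10.52) lay below both WT libraries (10.93 and 10.99), a difference of -0.63 ± 0.19 (95% interval -1.06 to -0.20, adjusted p = 0.395). The difference before LPS was -0.11, and after 4 hr 0.00. Averaged over the times it was -0.25 ± 0.11 (adjusted p = 0.746), and -0.31 with the axis between replicates as a term (adjusted p = 0.035). The scores behind that term also hold genotype differences. For Ctsd at 8 hr the difference was -0.28 (95% interval -0.62 to 0.07). For Atp6v0d2 it was 0.30 at 0 hr (-0.10 to 0.71), 0.23 at 4 hr (-0.17 to 0.64) and -0.12 at 8 hr (-0.53 to 0.28).

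**Figure D5:**
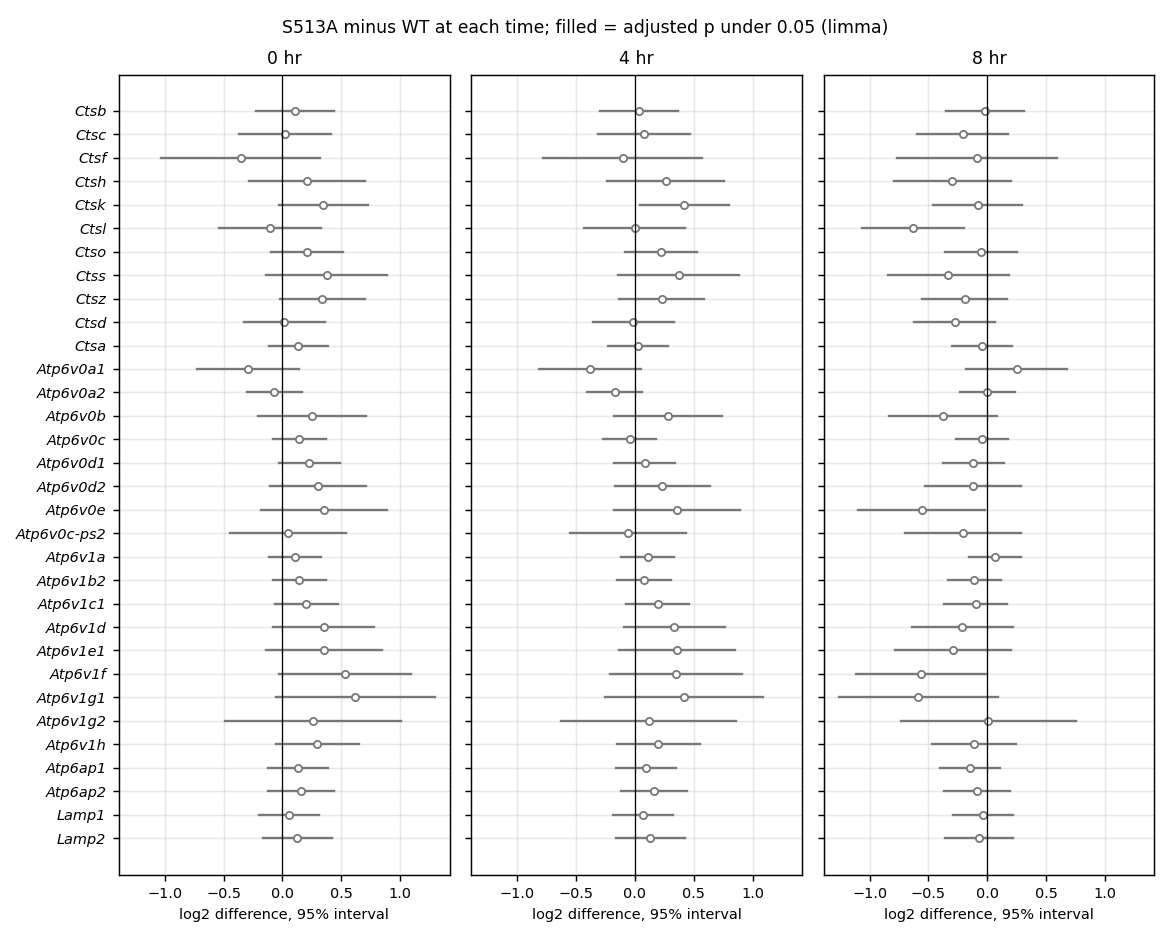
S513A minus WT difference in log2 CPM of the 32 tested genes at 0, 4 and 8 hr of LPS, with 95% intervals. Open points did not pass the limma test, and no point is filled. Most genes lie right of 0 at 0 hr and left of 0 at 8 hr.

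Other genes of the lysosome moved with LPS as well. Of 125 tested on 6 lists chosen for this pathway, 20 rose and 67 fell at 4 hr and 21 rose and 62 fell at 8 hr, with medians of -0.28 and -0.29. Over all genes 29.1% rose and 26.7% fell at 4 hr, and 24.5% and 21.6% at 8 hr. Each list below is to be set against these shares. Among 37 glycosidases, sulfatases and lipases, 5 rose and 27 fell at 4 hr and 6 rose and 23 fell at 8 hr. Sgsh, which removes sulfate from heparan chains, fell by 3.34 ± 0.17 at 4 hr (adjusted p = 3.42e-08), and Hyal1, a hyaluronidase, by 3.07 ± 0.13 (adjusted p = 1.00e-08). Pla2g15, a phospholipase, fell by 2.29 ± 0.09, while Rnaset2b, which may share reads with its near-identical copy Rnaset2a, stood 1.67 higher.

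Among 34 membrane proteins and transporters, 6 rose and 21 fell at 4 hr and 5 rose and 17 fell at 8 hr. The shares over all genes were 29.1% and 26.7% at 4 hr and 24.5% and 21.6% at 8 hr. Among the cation channels, Tpcn1 fell by 2.32 and Mcoln3 by 1.71 at 4 hr, while Mcoln2 rose by 1.20 (adjusted p = 3.20e-07, 1.78e-07 and 2.82e-07). Tpcn2 and Mcoln1, named after their values were seen, also fell at 4 hr, by 0.97 and 0.46. The sialic acid exporter Slc17a5 fell by 1.76 (adjusted p = 2.86e-08). Of 8 other lysosomal proteases, 0 rose and 4 fell at 4 hr and 0 rose and 6 fell at 8 hr. Lgmn, the asparagine endopeptidase that processes cathepsins, fell by 0.86 ± 0.09 at 4 hr and 1.68 ± 0.09 at 8 hr (adjusted p = 1.37e-05 and 9.18e-08). Prcp fell by 0.92 and 0.43, and Napsa fell by 0.48 at 8 hr.

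Of 10 genes on a list of cathepsin inhibitors, 4 rose at both times, 1 fell at 4 hr and 2 fell at 8 hr, where 29.1% of all genes rose and 26.7% fell at 4 hr and 24.5% and 21.6% at 8 hr. The list's median change was 0.54 and 1.36 in WT and -0.03 and -0.38 in S513A at 4 and 8 hr. This gap in medians was not tested, and no gene of the list was called between genotypes (smallest limma adjusted p = 0.325). Within each genotype, every LPS library of Serpina3g, Serpina3f, Cst7 and Serpinb9 lay above both 0 hr libraries. Cst7 (cystatin F), an inhibitor of Ctsc among others, rose by 2.00 ± 0.16 at 4 hr and 2.56 ± 0.16 at 8 hr (adjusted p = 1.47e-06 and 2.71e-07). Serpinb9, an inhibitor of granzyme B, rose by 0.69 and 1.88. The serpins Serpina3g and Serpina3f rose from means of -2.31 and -3.16 at 0 hr, near the level of 3 reads (-2.04 to -1.30 depending on the library), to 3.78 and 2.86 at 4 hr and 5.83 and 4.44 at 8 hr. They may share reads with other members of their cluster.

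Of 12 genes for the a3 subunit and for pump assembly, 2 rose and 5 fell at both times. Wdr7 and Rogdi, partners of the assembly factor complex, fell by 1.43 and 1.26 at 4 hr, and the TLDc-domain genes Oxr1 and Ncoa7 went apart, -1.15 and 0.95. Of 24 genes for MiT/TFE factors and lysosomal signalling, 3 rose and 9 fell at 4 hr and 4 rose and 9 fell at 8 hr. For both lists the shares over all genes were 29.1% higher and 26.7% lower at 4 hr, and 24.5% and 21.6% at 8 hr. Tfeb, a master regulator of lysosomal genes, fell by 1.16 ± 0.11 at 4 hr and 0.82 ± 0.11 at 8 hr (adjusted p = 4.93e-06 and 9.63e-05). Mitf rose by 0.51 ± 0.10 and 0.62 ± 0.10 (adjusted p = 0.00145 and 0.000515), and Tfec, a further member of the family, rose at both times, by 1.28 at 8 hr. Rragd, a GTPase that brings mTORC1 to the lysosome, fell by 2.45 and 2.31, Fnip2 fell by 1.48 and 0.94, and the autophagy receptor gene Sqstm1 rose by 1.57 and 1.58. Tfeb and Mitf were named after their values were seen. None of the 125 was called between genotypes at any time.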

How the data were processed

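RNA-seq libraries of PECs were analysed as deposited. The authors mapped reads to the mouse genome mm10 with HISAT2 (paired end, unstranded), counted them with featureCounts 1.6.3, and deposited log2 CPM. Each deposited log2 value is that of the reads plus 0.5, divided by an adjusted library size. Whole reads were recovered on the assumption that the lowest value of each library stands for no reads, with 100% of values within 0.01 of a whole read. The program behind the values, the annotation and the gene filter were not given in the sources used here. At this depth 3 reads equal a log2 CPM of -2.04 to -1.30, and such floors cover counting error only.

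The 11885 genes that reached 1 CPM in 2 or more libraries were tested with limma 3.58.1 in R 4.3.3, with a mean per group (6 residual degrees of freedom), a prior following the mean value, two-sided tests and Benjamini-Hochberg adjustment over all genes tested, with 0.05 as the threshold for "rose" and "fell". The model was tested on simulated data. The genes and lists were chosen with earlier results of these data known. A gene was left out of each of 2 lists after the counts were made and is not reported here. Values in every library are given for genes called with a log2 change of at least 1 at 4 or 8 hr and for the 6 highest per length at 0 hr, and up to 4 called genes with the largest change are named from each other list. Other members were named in their families by ranges and changes. Gene positions and exon lengths came from the GENCODE annotation of GRCm38, with a length found for 98.0% of listed genes. Of the 34 genes 23 matched a RefSeq promoter window by gene identifier. Alternatives were other filters, a further pseudocount of 1 CPM, quantile normalization and median-ratio scaling, a block for the replicate number, correlated libraries, other priors, a model of only the libraries compared, voom weights, the axis between replicates as a term, and each library left out. The isoform ratios and the counts of non-overlapping libraries between genotypes were added after the data were seen. Tables were made with Python 3.11.15 and pandas 2.3.3.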

Additional observations from a re-analysis of the deposited data

Results flagged for a closer look

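For 4 V-ATPase genes the libraries of the genotypes moved in opposite directions at 8 hr: both WT libraries at 8 hr lay above both at 0 hr, and both S513A libraries lay below. Of all genes tested, 845 (7.11%) showed this pattern and 572 (4.81%) the opposite one, and 20.2% had an unadjusted p under 0.05 for the interaction. The difference in LPS change, S513A minus WT, was -0.91 ± 0.34 (SE) for Atp6v0e, -0.56 ± 0.27 for Atp6v1d, -1.09 ± 0.36 for Atp6v1f and -1.20 ± 0.43 for Atp6v1g1 on the log2 scale. None passed the limma interaction test (adjusted p = 0.206, 0.264, 0.194 and 0.20). Atp6v1g1 was 6.98 and 7.41 in WT at 0 hr and 7.65 and 7.68 at 8 hr, and 7.85 and 7.77 in S513A at 0 hr and 6.64 and 7.51 at 8 hr, with the lowest value in S513A 8 hr replicate 1. That library scored 1.66 SD on the axis between replicates, on which these 4 genes load at the 2.85 to 11.8 percentile of all genes. With that axis as a term the differences for Atp6v0e, Atp6v1f and Atp6v1g1 were -0.32, -0.47 and -0.46, none called. At 8 hr the scores were -0.31 and -0.74 SD in WT and 1.66 and -0.60 SD in S513A. The term thus takes up part of the genotype difference in LPS change by construction. Without S513A 8 hr replicate 2, which leaves 1 library in that group that is assumed to vary like the others, the test called 3 of the 4 (Atp6v0e, Atp6v1f and Atp6v1g1, -1.30, -1.48 and -1.64) and 651 of all genes, 5.48%.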

How the results depend on the processing

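The falls of Atp6v0d2, Atp6v0a1, Ctsd and Ctsl at 8 hr, and of the first 3 at 4 hr, and the rise of Ctsc at both times, kept their direction and call under all 25 alternatives run. Among the 8 genes given per library, the direction of the change from 0 hr turned once, for Ctsz at 4 hr with quantile normalization (-0.28). From 4 to 8 hr, where neither was called, Ctsb and Atp6v0d2 each turned under 1 setting (to 0.14 and -0.02). The number of members called at 4 hr, averaged over genotypes, differed from 17 under 23 of the 25 alternatives, and with all libraries it ran from 15 to 25. The settings with 15 and 25 called 53.7% and 66.8% of all genes. Ctsb, Lamp1 and Atp6v0b were called at 4 hr in 15, 18 and 18 of the 25. Quantile normalization called 18 members in WT and 17 in S513A at 4 hr, against 10 each. It called 40.6% and 41.3% of all genes there, against 41.3% and 43.2% in the main model. With the axis between replicates as a term, 16 were called from 4 to 8 hr, 19 in WT and 20 in S513A at 4 hr, 26 in S513A at 8 hr, and 1 (Ctsl) between genotypes averaged over the times, where 43.0%, 55.5%, 56.3%, 48.7% and 0.749% of all genes were called. Models of only the libraries compared called 3 from 4 to 8 hr, 6 in WT at 4 hr and 5 between genotypes at 0 hr. They called 18.7%, 30.3% and 5.83% of all genes in the same order. Over all genes the axis term raised the calls at 4 hr from 6635 to 7941. Leaving out each library gave 11 to 20 members called at 4 hr and 14 to 20 at 8 hr averaged over genotypes, and 2 to 6 from 4 to 8 hr. In WT it gave 6 to 12 at 4 hr and 6 to 15 at 8 hr, in S513A 7 to 12 and 7 to 20, and for the interaction at 8 hr 0 to 3. For the other comparisons between genotypes it gave 0. The replicate numbers were shared by the groups, but the correlations of replicate differences ranged from negative to positive and did not pair the samples. With a replicate block, 17 members were called at 4 hr and 17 at 8 hr averaged over genotypes, against 17 and 18. The block called 54.4% and 44.2% of all genes, against 55.8% and 46.1%. The cause of these differences was not tested. With 2 libraries per group, differences between genotypes needed to be large to pass, and a low count does not show that the genotypes act alike.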
